A study of Mus musculus with 8 samples.

Results

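The SLAM family is a group of receptors on the surface of blood cells, and 6 of its genes were followed through 8 libraries of sorted mouse blood stem cells: Slamf1, Cd48, Cd84, Ly9, Slamf6 and Slamf7. They were matched by symbol, and all 6 were found among the 24421 gene symbols of the deposited tables. The family was chosen with earlier results of these data known. The libraries measured total RNA of LT-HSCs, the long-term haematopoietic stem cells of bone marrow, sorted as lineage-negative, CD117-positive and Sca1-positive cells with high CD150 and low CD48. A Vwf-GFP reporter, which reads out the von Willebrand factor gene, split them into Vwf+ cells, described as megakaryocyte-biased, and Vwf- cells, described as not so biased. Cells of both fractions came from wild-type (WT) mice and from mice heterozygous for Dnmt3a (Dnmt3a+/-), the gene of a de novo DNA methyltransferase. All mice were 10 to 12 months old, and both genotypes were sorted through the same reporter. The 4 groups, Vwf+ WT, Vwf+ Dnmt3a+/-, Vwf- WT and Vwf- Dnmt3a+/-, held 2 libraries each, and replicate 1 was a male and replicate 2 a female pool of 3 to 4 mice. Single mice were therefore not resolved, and sex and replicate number cannot be told apart.

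SLAM receptors have immunoglobulin-type extracellular domains. Most bind a copy of themselves on a neighbouring cell, whereas CD48, which is tied to the membrane by a lipid anchor, binds CD244 and, in mice, CD2. Except for CD48, the receptors among these 6 carry tyrosine switch motifs in their tails that recruit small SH2 adaptors of the SAP family and the kinase FYN, or inhibitory phosphatases when no adaptor is present. In bone marrow the family is best known for its use in sorting: CD150, the product of Slamf1, is kept on LT-HSCs and lost on many progenitors, CD48 shows the reverse pattern, and CD229, the product of Ly9, and CD244 have been used to subdivide stem and progenitor cells. CD150 and CD48 were gating antigens of both fractions here, so transcripts of these genes describe cells already held to high CD150 and low CD48.

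Levels are given as TPM, counts per length scaled to 1e+06 in each library, as CPM, counts per 1e+06 after scaling, or as counts. TPM and CPM can order the libraries differently for 1 gene. Matched pairs and overlaps of the fractions are counted in CPM. Total counts were 21809278 to 28844349 in the Vwf+ and 27891160 to 39402418 in the Vwf- libraries. Differences between groups are log2 differences of counts from edgeR's quasi-likelihood test with a standard error (SE), with Benjamini-Hochberg adjustment of the p-values across the 15917 genes tested and a threshold of 0.05. All 6 members passed the filter on low counts, but Slamf6 and Slamf7 did so with at most 25 and 12 counts in a library. The fractions differed in other cell identity genes, read here beside the 5.44% of all tested genes that passed in this comparison. Among multipotent progenitor markers, Flt3 was lower in Vwf+ cells (2.16 to 5.66 TPM against 20.6 to 26.7 TPM in Vwf- cells), as were Cd34 (42.7 to 52.3 TPM against 98.4 to 155 TPM) and Cd27 (76.4 to 114 TPM against 175 to 185 TPM), and 4 of 9 LT-HSC markers, Mecom, Fgd5, Hoxb5 and Ctnnal1, were higher. Of the T and NK cell markers, 1 of 3 tested, Nkg7, was lower, and the summed level of all 9 was 11.3 to 20.5 TPM against 29.5 to 32.5 TPM. Most of that sum was Nkg7 (4.70 to 9.61 TPM against 18.1 to 23.3 TPM) and Lck (5.94 to 9.92 TPM against 6.77 to 8.88 TPM), which did not pass. The gap in the sum is thus mainly that of Nkg7. Of the endothelial markers 3 of 6 were higher (Cdh5, Kdr and Cldn5), of the megakaryocyte and platelet markers 2 of 7 (Pf4 and Gp1bb) and of the neutrophil markers 1 of 6 (Elane). Of the mast cell and basophil markers 1 of 5, Cpa3, was lower, and of the dendritic cell markers 1 of 3 tested, again Flt3. None of the tested B cell, plasma cell, monocyte and macrophage, or erythroid markers passed. The part of these other cell states in the differences below was not tested. In pooled cells of this kind, fewer cells of a type and less RNA per cell cannot be told apart.

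Slamf1 was the 1 member that rose in Vwf+ cells without a block. Its level was 59.9 and 54.3 TPM in the male and female Vwf+ WT pools and 70.4 and 69.2 TPM in the Vwf+ Dnmt3a+/- pools. It was 15.6 and 19.8 TPM in the male and female Vwf- WT pools and 17.5 and 20.7 TPM in the Vwf- Dnmt3a+/- pools. In CPM the male Vwf+ WT pool, at 75.6, lay below the female one, at 80.5, the reverse of their order in TPM. Every Vwf+ library was thus above every Vwf- library, and the gene moved from percentiles 67.1 to 71.8 of all genes by TPM in Vwf- cells to percentiles 89.1 to 91.2 in Vwf+ cells. The rise was 3.55-fold in WT cells (adjusted p = 0.00059, edgeR) and 3.57-fold in Dnmt3a+/- cells (adjusted p = 0.001, edgeR). The difference between these log2 changes was 0.01 ± 0.23 (SE), with a 95% interval of -0.5 to 0.51 and an adjusted p of 1 from edgeR. Mean levels fell in the order Vwf+ Dnmt3a+/- (69.8 ± 0.87 TPM, SD, n = 2), Vwf+ WT (57.1 ± 4 TPM), Vwf- Dnmt3a+/- (19.1 ± 2.2 TPM) and Vwf- WT (17.7 ± 3 TPM). In CPM the means kept that order but lay closer in Vwf+ cells, at 86.7, 78, 24.3 and 22 CPM. The neighbours in that order within a fraction did not differ by the test given below.

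The other gating antigen, Cd48, was low, at 2.77 to 5.84 TPM in Vwf- libraries, and close to the edge of detection in some Vwf+ libraries. Its counts were 22 and 2 in the male and female Vwf+ WT pools and 9 and 52 in the Vwf+ Dnmt3a+/- pools. They were 43 and 85 in the Vwf- WT pools and 78 and 100 in the Vwf- Dnmt3a+/- pools. On the CPM scale it was lower in the Vwf+ library in each of 4 pairs of the same genotype and sex, but the female Vwf+ Dnmt3a+/- pool, at 1.88 CPM, stood above the lowest Vwf- library, at 1.52 CPM. Here and below, the share of all tested genes with 4 agreeing pairs was not computed. The log2 difference, Vwf+ minus Vwf-, was -1.53 ± 0.69 (SE) with a 95% interval of -3.07 to 0.02, and it did not pass (adjusted p = 0.30, edgeR). It was -2.82 without the male Vwf+ WT pool and -1.08 without the female one, and neither passed (adjusted p = 0.086 and 0.57, edgeR). Of the alternatives tried, it passed in the 1 where each Vwf+ library was matched to the Vwf- library of its genotype and sex (-1.84, adjusted p = 0.011, edgeR). The ratio of Slamf1 to Cd48, both in TPM, was 3.54 to 5.62 in the Vwf- libraries and 19.5 to 397 in the Vwf+ libraries, where the upper end rests on the library with 2 Cd48 counts.

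Cd84, a self-binding receptor of platelets, mast cells and lymphocytes, did not pass between fractions without a block. It stood at 50.4 and 36.5 TPM in the male and female Vwf+ WT pools and at 55.1 and 38.1 TPM in the Vwf+ Dnmt3a+/- pools. In Vwf- cells it stood at 36.6 and 39.4 TPM in WT and at 41.7 and 26.8 TPM in Dnmt3a+/- pools. The ranges of the fractions overlapped, although the Vwf+ library had the higher CPM in 4 of 4 matched pairs. In the female WT pair the scales went opposite ways, with 126 against 110 CPM but 36.5 against 39.4 TPM. The log2 difference was 0.36 ± 0.16 (SE) with an adjusted p of 0.28 from edgeR, and with replicate number as a block it was 0.36 with an adjusted p of 0.027. Leaving out the male Vwf- Dnmt3a+/- pool alone gave 0.53 with an adjusted p of 0.033, and leaving out either the male Vwf+ or the female Vwf- Dnmt3a+/- pool gave 0.22.

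Ly9 went the other way. Its level was 9.33 and 7.71 TPM in the male and female Vwf+ WT pools and 6.62 and 7.72 TPM in the Vwf+ Dnmt3a+/- pools. In Vwf- cells it was 14.3 and 11.8 TPM in WT and 13 and 9.45 TPM in Dnmt3a+/- pools. Each Vwf- library lay above each Vwf+ library, if narrowly, and in CPM the ranges were 11.7 to 17.8 against 7.89 to 11.3. The log2 difference, Vwf+ minus Vwf-, was -0.58 ± 0.18 (SE) and did not pass in the model without a block (adjusted p = 0.10, edgeR). With the replicate block it was -0.57 and passed (adjusted p = 0.026, edgeR).

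**Figure D1:**
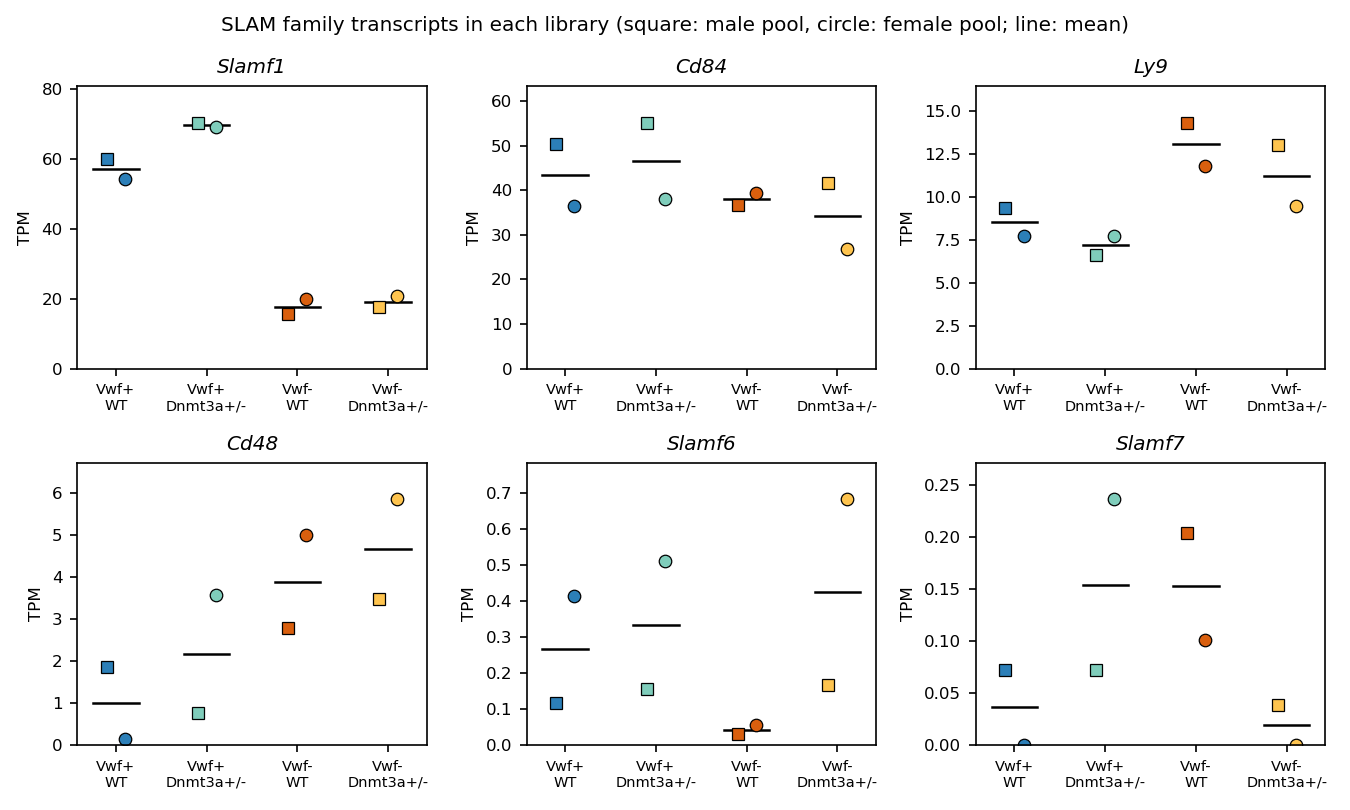
Level of each of the 6 SLAM family genes in TPM (vertical axes, which differ between panels) in the 4 groups; squares are male pools, circles female pools and lines the mean of 2 libraries. Slamf1 lies between 54.3 and 70.4 TPM in Vwf+ and between 15.6 and 20.7 TPM in Vwf- libraries, Ly9 is higher in Vwf- libraries, and Slamf6 and Slamf7 stay below 1 TPM.

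Slamf6 and Slamf7, self-binding receptors of T, B and NK cells, were close to the floor of 3 counts that a library listed at 0 allows. Slamf6 had 3 and 13 counts in the male and female Vwf+ WT pools, 4 and 16 in the Vwf+ Dnmt3a+/- pools, 1 and 2 in the Vwf- WT pools and 8 and 25 in the Vwf- Dnmt3a+/- pools. The female pool had the higher CPM in each of the 4 groups, and neither the fractions nor the sexes differed by the test (adjusted p = 0.64 and 0.32, edgeR). Slamf7 had 0 to 12 counts in a library, with 0 in the female Vwf+ WT and the female Vwf- Dnmt3a+/- pool. At these depths the fitted differences of both genes depend on the prior count, and no direction is read from them.

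Of the 6 members, 1 passed in the comparison of fractions, where 5.44% of all tested genes did. Within WT cells Slamf1 was again the 1 member that passed, against 1.97% of all genes, and within Dnmt3a+/- cells it was again the 1, against 1.06% of all genes. With the replicate block 3 of 6 members passed, Slamf1 and Cd84 upward and Ly9 downward, and 13.4% of all genes did. The libraries of the fractions did not overlap in CPM for 2 of 6 members, Slamf1 and Ly9, as they did not for 13% of all tested genes. The members went both ways, from -1.53 for Cd48 to 1.83 for Slamf1 on the log2 scale. Their median of 0.37, beside -0.01 over all tested genes, falls between Cd84 and the low-count Slamf7 and describes no shared shift.

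The other members of the wider family were Cd244, Slamf8 and Slamf9. Cd244 encodes the receptor for CD48, and its symbol is an older name of Cd244a. It had 0 and 18 counts in the male and female Vwf+ WT pools and 16 and 25 in the Vwf+ Dnmt3a+/- pools, against 131 and 165 in the Vwf- WT pools and 132 and 293 in the Vwf- Dnmt3a+/- pools. The ranges were 0 to 0.905 CPM in Vwf+ and 3.15 to 9.36 CPM in Vwf- cells and did not overlap. The fall, -3.27 ± 0.68 (SE) on the log2 scale, passed over both genotypes (adjusted p = 0.021, edgeR). It was -3.60 in WT cells (adjusted p = 0.13, with the block -3.95 and 0.0012) and -2.95 in Dnmt3a+/- cells (adjusted p = 0.26, with the block -2.79 and 0.013, all edgeR). Without the male Vwf+ Dnmt3a+/- pool the averaged value was -3.19 with an adjusted p of 0.05, and without the female Vwf+ WT pool, which leaves that group with the library at 0, it was -6.55. CD244 is also carried by NK and some T cells. Of the 3 tested genes on the joint list of T and NK cell markers, Nkg7 was lower in Vwf+ cells (4.70 to 9.61 TPM against 18.1 to 23.3 TPM, log2 difference -1.69, adjusted p = 0.0055, edgeR), and Cd4 (-1.46, adjusted p = 0.10) and Lck (0.14, adjusted p = 0.78) did not pass. With the replicate block Cd4 passed as well (adjusted p = 0.043, edgeR). The NK cell genes Ncr1 and Klrd1 reached at most 0.267 and 0 TPM in Vwf+ and 0.0459 and 0.425 TPM in Vwf- libraries. The T cell genes Cd3d, Cd3e and Cd3g reached at most 0.216, 0.163 and 0.0763 TPM in Vwf+ and 0.46, 0.65 and 0.498 TPM in Vwf- libraries. Cd8a reached at most 0.183 against 0.236 TPM. These low genes were not tested, and neither was the part of T or NK cells in the fall of Cd244. Slamf8, a receptor of myeloid cells, stood at 0.589 to 3.01 TPM and did not pass (log2 difference 0.40, adjusted p = 0.76, edgeR). Slamf9 had at most 18 counts. Cd2, the other mouse partner of CD48, reached at most 0.528 TPM and was too low to test.

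The make-up of the family followed from these shifts. The summed level of 9 family genes, the 6 members with Slamf8, Slamf9 and Cd244, was 102 to 136 TPM in the Vwf+ libraries and 69.4 to 81.4 TPM in the Vwf- libraries. Slamf1 supplied 48.0% to 56.1% of that sum in Vwf+ cells and 20.8% to 29.8% in Vwf- cells. Cd84 supplied 30.9% to 40.6% against 38.7% to 52.1%, and Ly9 4.87% to 7.55% against 13.6% to 19.0%. These shares depend on the lengths behind the deposited TPM. With the coding transcripts that have the most exons in the GENCODE M21 annotation, a choice made after seeing the data, Slamf1 supplied 35.0% to 43.8% against 14.3% to 22.1% and Cd84 45.9% to 56.3% against 54.6% to 67.0%. With the deposited TPM, Cd48 supplied 0.134% to 2.88% against 3.70% to 8.42%, and Cd244 at most 0.421% against 2.24% to 7.5%.

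**Figure D2:**
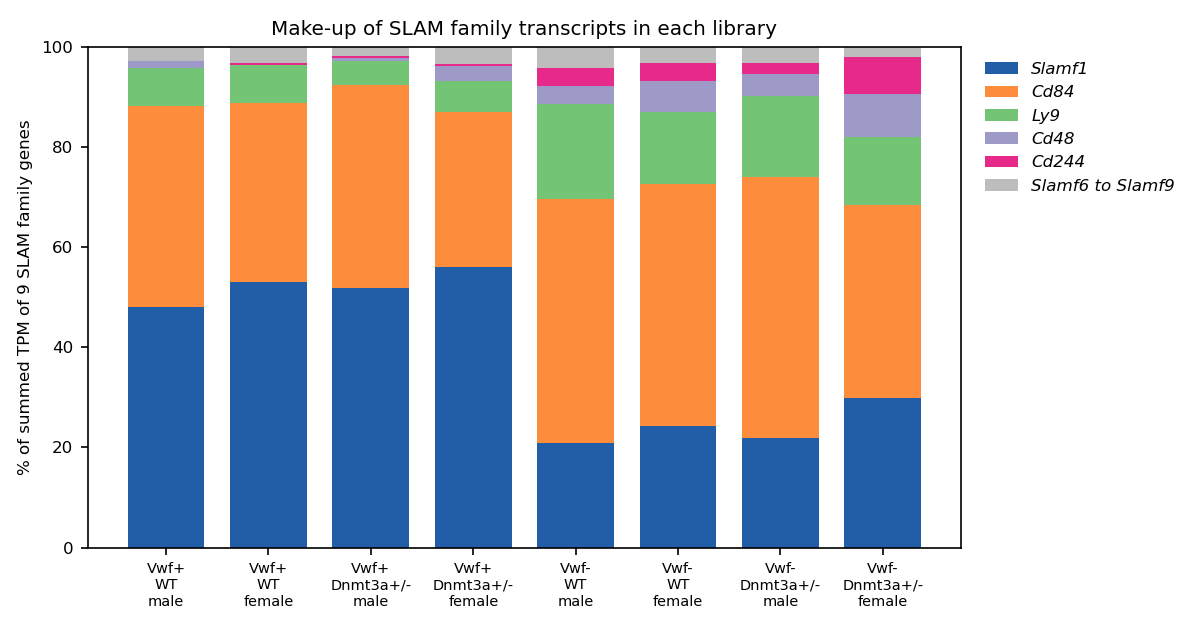
Share of the summed TPM of 9 SLAM family genes taken by each gene (vertical axis, percent) in each of the 8 libraries; bars are stacked to the whole. Slamf1 takes 48.0% to 56.1% of the sum in the Vwf+ libraries and 20.8% to 29.8% in the Vwf- libraries, with the deposited lengths, and 35.0% to 43.8% and 14.3% to 22.1% with M21 transcript lengths, which are not plotted.

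The order of Slamf1 and Cd84 depended on the gene length. In TPM, Slamf1 was above Cd84 in the 4 Vwf+ libraries, with ratios of 1.19 to 1.82, and below it in the 4 Vwf- libraries, with ratios of 0.42 to 0.77. The deposited TPM values rest on a length for Cd84 that is 2.33 times that for Slamf1. With the M21 transcripts, 3291 bases for Cd84 and 2693 bases for Slamf1, Slamf1 was above Cd84 in 0 of 8 libraries. The step in the ratio from Vwf- to Vwf+ cells does not depend on the length, which is the same in all libraries.

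**Figure D3:**
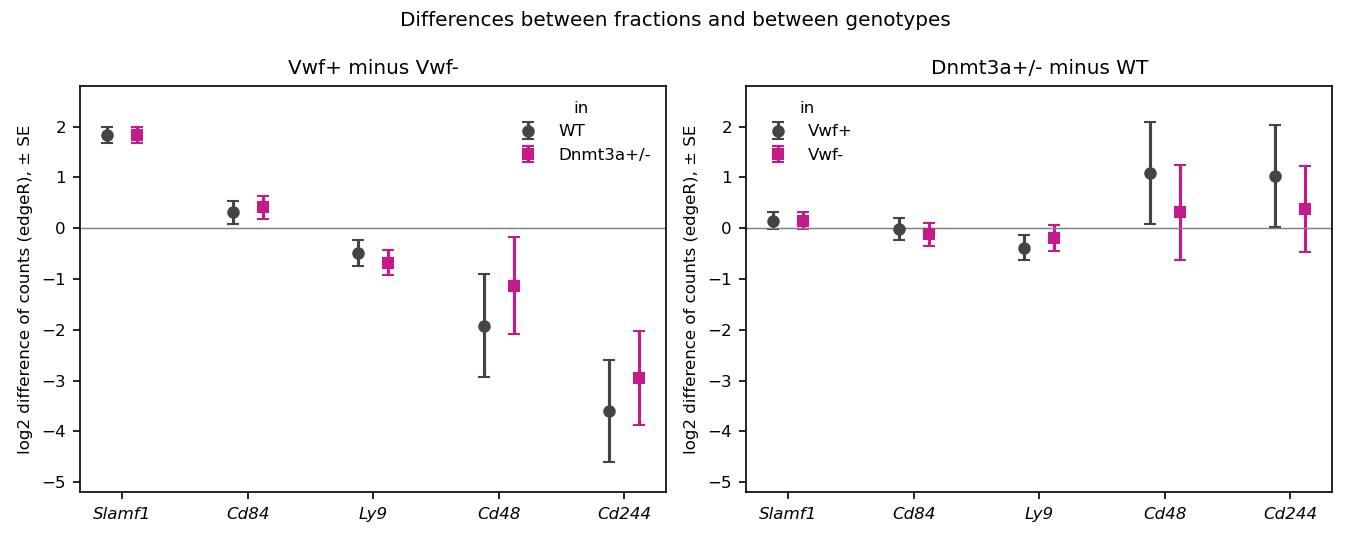
Log2 differences of counts from edgeR with SE (vertical axes) for 4 members and Cd244, between fractions within each genotype on the left and between genotypes within each fraction on the right. Slamf1 stands at 1.83 in both genotypes on the left, and no point on the right passed the test.

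No member passed in the comparison of Dnmt3a+/- with WT cells. Over both fractions 0% of the 15917 tested genes passed by edgeR, with 516 at an unadjusted p under 0.05, and DESeq2 called 16. Within Vwf+ cells 0% of tested genes passed, with 363 at an unadjusted p under 0.05 and 5 called by DESeq2, and within Vwf- cells 0% passed, with 211 unadjusted and 2 called by DESeq2. For the interaction of genotype with Vwf status 0% passed, with 159 unadjusted and 0 called by DESeq2. Of the 6 members 0 had an unadjusted p under 0.05 in any of these comparisons, and 0 passed by DESeq2. Slamf1 was higher in the Dnmt3a+/- library in 4 of 4 pairs of the same fraction and sex, by 0.15 ± 0.11 (SE, log2), with a 95% interval of -0.10 to 0.40. Ly9 was lower in CPM in 4 of 4 such pairs, with a log2 difference of -0.29 ± 0.18 (SE) and an interval of -0.68 to 0.11. In TPM its female Vwf+ pair was level, at 7.72 in Dnmt3a+/- and 7.71 in WT cells. Cd84 differed by -0.07 ± 0.16 and Cd48 by 0.70 ± 0.69 (SE, log2), with pairs in both directions. The adjusted p was 1 for each of these 4 genes in edgeR and 0.76 to 0.87 with the replicate block. None of these intervals excludes a difference of 0, and those of Slamf1 and Ly9 leave room for changes of up to 0.40 and -0.68 on the log2 scale. As the share of all tested genes whose 4 pairs agree was not computed, no shift is read from that agreement.

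Between male and female pools, Cd84 was the 1 member of 6 that passed, where 10.5% of all tested genes did. It was higher in the male pool in 3 of 4 groups, by 0.34 ± 0.11 (SE, log2; adjusted p = 0.046, edgeR), and in Vwf- WT cells both pools were at 110 CPM. The call was lost with another scaling (RLE size factors, adjusted p = 0.052) and without any 1 of the 4 Dnmt3a+/- libraries (adjusted p of 0.22 to 0.29). Slamf1 differed by -0.14 ± 0.10 and Ly9 by 0.16 ± 0.17 (SE, log2, male minus female), and neither passed (adjusted p = 0.39 and 0.59, edgeR). Sex and replicate number are the same split here.

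The clustered family genes lie close together on mouse chromosome 1. In GENCODE M21 on GRCm38, also called mm10, the order along the chromosome was Cd244a (171559193 to 171609746, plus strand), Ly9 (171588624 to 171607410, minus), Slamf7 (171632403 to 171653035, minus), Cd48 (171682009 to 171705258, plus), Slamf1 (171767127 to 171801184, plus), Cd84 (171839697 to 171890718, plus) and Slamf6 (171917515 to 171953170, plus). The 7 genes cover 394 kb. Ly9 lies within the span of Cd244a on the other strand and shares 0 exonic bases with it in this annotation, but whether the counting used strand is not known. Slamf1 starts 85.1 kb beyond the start of Cd48 and ends 38.5 kb before that of Cd84, and across that stretch the log2 difference between fractions went from -1.53 to 1.83 to 0.36.

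Beside these family genes, 22 other protein-coding genes lay in or within 300 kb of the span of the 6 members, and 18 were tested. That span begins at Ly9 and so leaves out the start of Cd244a. Of the 22, Gm10521 lies inside the cluster, between Cd84 and Slamf6, and was not among the deposited symbols. The median log2 difference of the 18 tested genes between fractions was -0.05, and 1 of them passed. That gene was Arhgap30, which encodes a GTPase-activating protein and lies upstream of the cluster, at -378 kb from the start of Slamf1. It stood at 15.1 to 23.3 TPM in Vwf+ and 62.3 to 77.5 TPM in Vwf- libraries, a log2 difference of -1.80 ± 0.11 (SE, adjusted p = 2e-05, edgeR). With the replicate block 3 of the 18 passed, F11r (log2 difference 0.48) and Pea15a (0.41) upward and Arhgap30 downward, beside 13.4% of all genes.

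**Figure D4:**
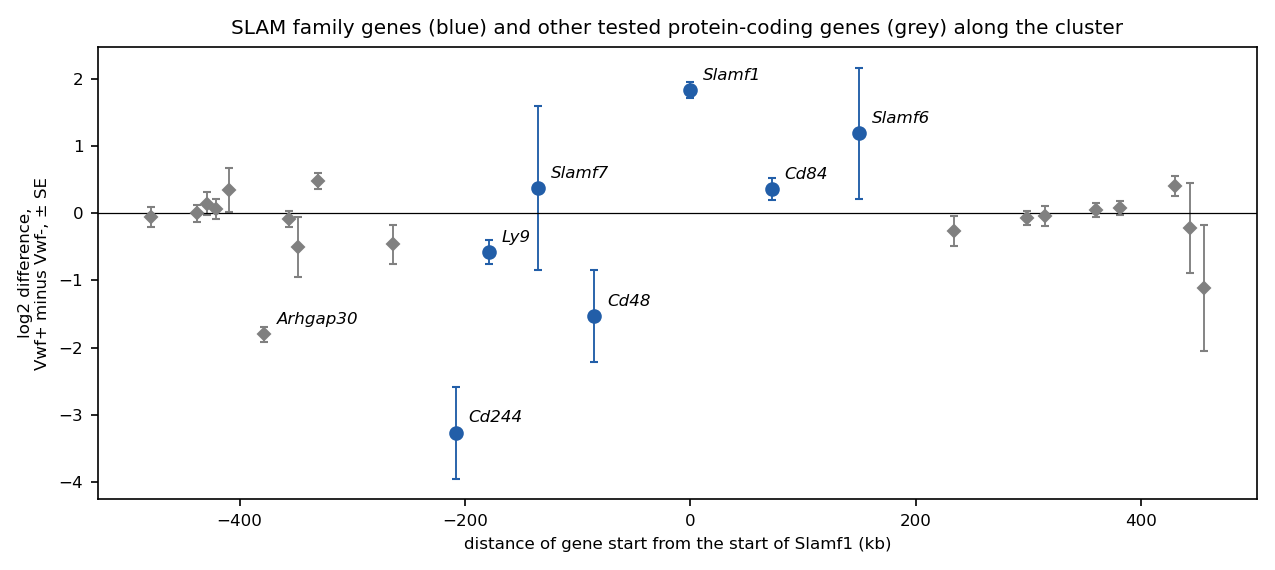
Log2 difference between Vwf+ and Vwf- libraries with SE (vertical axis) against the distance of each gene's start from that of Slamf1 in kb (horizontal axis), for the 7 clustered SLAM family genes in blue and 18 other tested genes in grey. Slamf1 at 1.83 stands between Cd48 at -1.53 and Cd84 at 0.36, the points of Slamf6 and Slamf7 rest on at most 25 and 12 counts in a library, and of the grey genes Arhgap30 at -1.80 passed the test.

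The promoters of Slamf1 and of its neighbours on either side are shown because Slamf1 rose in Vwf+ cells and the genes beside it did not pass without a block. Each window holds 250 bases before and 50 after the gene start, from RefSeq on GRCm38.p6, plus strand, and 5 of the 6 members had one. Capitals mark short motifs searched on both strands: AGATAA for GATA factors, CCGGAA as the first and AGGAAG as the second motif for ETS factors, TGTGGT for RUNX factors, and CACCTG as the first and CAGCTG as the second E-box. Slamf1 lies at chr1:171766882-171767181, Cd48 at chr1:171681742-171682041 and Cd84 at chr1:171839447-171839746.
Slamf1: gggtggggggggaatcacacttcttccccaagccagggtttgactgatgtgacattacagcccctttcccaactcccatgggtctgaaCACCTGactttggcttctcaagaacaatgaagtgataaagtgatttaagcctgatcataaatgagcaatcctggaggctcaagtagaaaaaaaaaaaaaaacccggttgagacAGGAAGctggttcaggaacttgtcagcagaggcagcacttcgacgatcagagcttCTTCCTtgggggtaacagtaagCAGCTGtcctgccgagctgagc
Cd48: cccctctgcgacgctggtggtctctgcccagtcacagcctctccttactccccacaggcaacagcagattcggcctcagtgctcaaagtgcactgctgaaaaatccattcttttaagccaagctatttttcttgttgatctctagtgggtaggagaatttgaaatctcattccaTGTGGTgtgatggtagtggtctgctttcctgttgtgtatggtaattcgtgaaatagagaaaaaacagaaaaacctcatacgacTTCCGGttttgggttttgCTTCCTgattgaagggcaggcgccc
Cd84: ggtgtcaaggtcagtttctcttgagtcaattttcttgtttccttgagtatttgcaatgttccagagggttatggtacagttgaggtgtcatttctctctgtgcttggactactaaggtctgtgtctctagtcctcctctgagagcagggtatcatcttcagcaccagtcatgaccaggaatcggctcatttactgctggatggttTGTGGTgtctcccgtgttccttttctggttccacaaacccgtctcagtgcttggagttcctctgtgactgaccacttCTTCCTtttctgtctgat
The Slamf1 window held AGGAAG at both position -49 and, on the other strand, position 7 from the start, with the E-boxes CACCTG at position -162 and CAGCTG at position 29. The Cd48 window held TGTGGT at position -76, CCGGAA at position 8 and AGGAAG at position 26, the last pair on the other strand. The Cd84 window held TGTGGT at position -45 and AGGAAG on the other strand at 33. Over all 32851 windows, AGGAAG was in 35.4%, CCGGAA in 14.9%, TGTGGT in 16.8%, CACCTG in 20.2%, CAGCTG in 16.3% and AGATAA in 11.2%. Each motif is thus common, none of the printed matches overlapped, and AGATAA was in none of these 3 windows. It was the only form searched for GATA factors, and TGATAA, which stands unmarked in the Slamf1 window, was not searched. The windows held 4, 7 and 3 CG pairs for Slamf1, Cd48 and Cd84, beside a median of 7, so that 31.4%, 47.9% and 23.3% of all windows held fewer. These matches are letters in a window and not measured sites.

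Downstream of the receptors, of 16 adaptors and kinases listed, 14 were tested and 0 passed between fractions by edgeR, with 2 at an unadjusted p under 0.05 and a median log2 difference of -0.01. Fyn, the kinase that SAP brings to SLAM tails, stood at 44.9 to 59.7 TPM in Vwf+ and 50.9 to 64.9 TPM in Vwf- libraries. The adaptors themselves were at or near 0: Sh2d1a, which encodes SAP, reached at most 0.349 TPM, Sh2d1b1 0.712 TPM and Sh2d1b2 0.504 TPM. With the replicate block 1 of the 14 passed, Prkcq, a protein kinase C that acts downstream of SLAM receptors in T cells (log2 difference 0.34, 60.9 to 70.7 TPM against 47.9 to 58.1 TPM, block adjusted p = 0.016, edgeR), beside 13.4% of all genes.

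Of 10 inhibitory effectors, all tested, 0 passed by edgeR, with 5 at an unadjusted p under 0.05, and the median log2 difference was -0.08. The inositol phosphatase genes Inpp5d, which encodes SHIP, and Inpp5b stood at 79.0 to 103 TPM against 110 to 127 TPM and at 29.6 to 39.1 TPM against 43.0 to 55.5 TPM. With the replicate block 5 of 10 passed, 3 lower in Vwf+ cells (Inpp5d, log2 difference -0.30; Inpp5b, -0.41; Cblb, a ubiquitin ligase gene, -0.33) and 2 higher (the docking protein genes Dok1, 0.38, and Dok2, 0.46), beside 13.4% of all genes. Between the sexes 1 of the 10, Ptpn11, which encodes a tyrosine phosphatase, was lower in male pools (log2 difference -0.36, adjusted p = 0.021, edgeR), beside 10.5% of all genes. Of 7 partners of SLAMF1 at the phagosome, where SLAMF1 binds a complex of Beclin and a class III lipid kinase in macrophages, 0 passed by edgeR, with 1 at an unadjusted p under 0.05, and the median was 0.02. The genes of that complex, Becn1, Pik3c3, Uvrag and Pik3r4, differed by -0.05 to 0.07 on the log2 scale, and with the block 1 of 7 passed, the oxidase subunit gene Ncf4 (-1.18, block adjusted p = 0.028, edgeR), beside 13.4% of all genes.

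**Figure D5:**
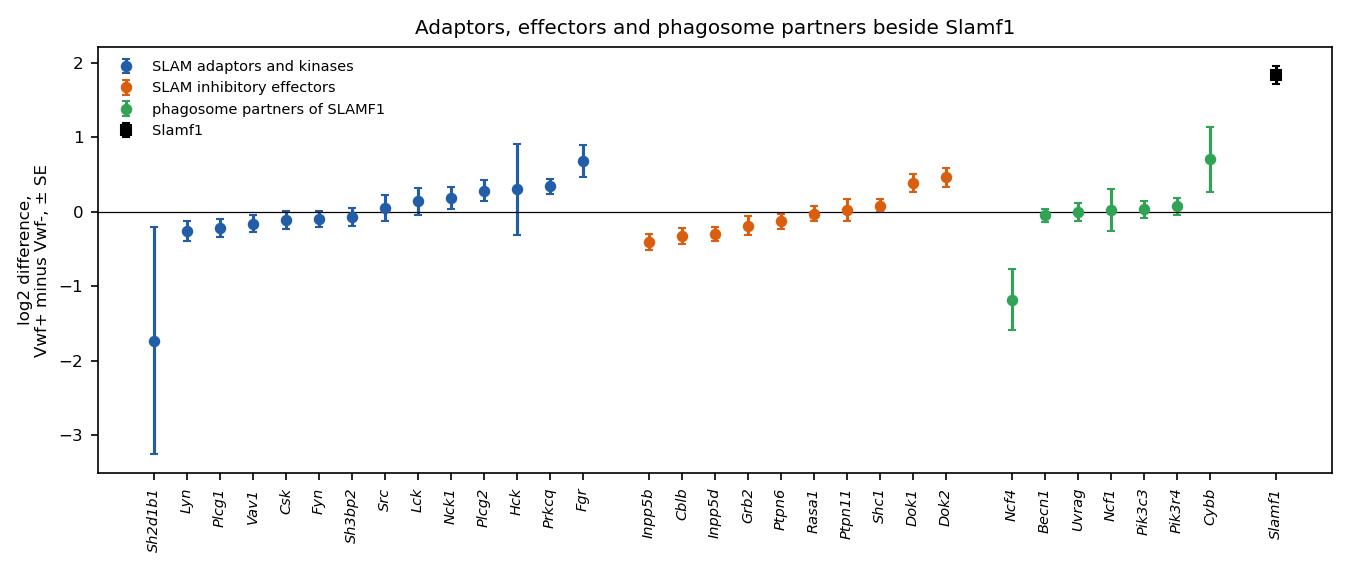
Log2 difference between Vwf+ and Vwf- libraries with SE (vertical axis) for each tested gene of 3 lists, with Slamf1 at the right. Slamf1 stands at 1.83, and 0 of the 31 listed genes passed the test without a block.

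Among the other sorting antigens, Kit, which encodes CD117, differed by -0.21 (adjusted p = 0.46, edgeR) and Ly6a, which encodes Sca1, by 0.33 (adjusted p = 0.38, edgeR) on the log2 scale between fractions. Neither passed. Vwf, the reporter's gene, was at 254 to 294 TPM in Vwf+ and 23.3 to 29.0 TPM in Vwf- libraries and so matched the sort.

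The genes whose profile over the 8 libraries was most like that of Slamf1 were sought among 10175 genes by Pearson's r of log2 CPM. They were Evc, a ciliary protein gene, with r = 0.995, Ctnnal1, an alpha-catulin gene that also marks LT-HSCs, with r = 0.991, and Srd5a1, a steroid reductase gene, with r = 0.989. For Cd84 they were Mctp1 (r = 0.978), Zfp449 (r = 0.971) and Meis3 (r = 0.965). Because Slamf1 splits the fractions, a high r with it goes with a difference between fractions, and the 3 genes were higher in Vwf+ cells by 0.90 to 1.19 on the log2 scale. The 8 points share their 4 groups, so that r describes these libraries and carries no p. By Spearman's rank correlation 0 of the 3 nearest genes of Slamf1 and 0 of the 3 nearest of Cd84 reached the highest value, 0.98.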

How the data were processed

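Total RNA was isolated with a micro-scale Qiagen kit and made into libraries with a Takara low-input total RNA kit, per the labels. Trim Galore, STAR, featureCounts, DESeq2 and the mouse build mm10 appear in the submitters' processing notes, with no version or role. The authors deposited raw counts per gene as whole numbers, and a second deposited table holds TPM, each count divided by a fixed length per gene. The annotation, the strand setting and any use of molecular identifiers are not given in the sources used here. Intervals on counts cover counting error only.

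Counts were tested in R 4.3.3 with edgeR 4.0.16: filterByExpr with a minimum count of 10, TMM scaling, 4 group means and the quasi-likelihood F-test on all 8 libraries with 4 residual degrees of freedom. The sex comparison added sex to the model. P-values were adjusted over all 15917 tested genes. The SE is the log2 difference divided by the square root of F. P-values set a difference against the spread between pools, which the test steadies with information from all genes (6.19 prior degrees of freedom). Within a group that is the spread between a male and a female pool. Whether both fractions of a genotype and sex came from the same mice is not stated here. If they did, the model without a block ignores that pairing, and the genotype test over both fractions counts each pool more than once.

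Replicate numbers were read as pairing libraries, since each number stands for 1 sex in all groups; deviations of same-numbered libraries correlated across genes with r of 0.13 to 0.3 in the 6 pairs of groups. The alternatives were a replicate block (3 residual degrees of freedom), 4 blocks of a Vwf+ and a Vwf- library (2), DESeq2 1.42.0, RLE scaling, no filter, limma 3.58.1 on log2(TPM + 1) and log2(TPM + 0.1), the libraries of a contrast alone, and each library left out. Added after seeing the data were M21 transcript lengths (for the ratio of Slamf1 to Cd84 and for the family shares) and interactions with sex. The edgeR fit without a block was also run on simulated counts. Those counts held no sex or replicate effect, so that run cannot show how the fit behaves with such effects.

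The members and lists were chosen with earlier results of these data known. Named were all members and Slamf8, Slamf9 and Cd244, list genes and genes within 300 kb that passed, and the 3 genes of nearest profile to Slamf1 and to Cd84 among those with a mean log2 CPM of at least 3. Further genes, including those that passed with the block alone, were named after their values were seen. A few items are not reported here.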

Additional observations from a re-analysis of the deposited data

Results flagged for a closer look

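On the CPM scale, Cd84 took opposite directions in the sexes when Dnmt3a+/- was set against WT. In the male pools the Dnmt3a+/- library was higher by 12.1 and 11.1 CPM in the 2 fractions, and in the female pools it was lower, with differences of -29.9 and -15.4 CPM across the fractions. In TPM the female Vwf+ pair went the other way, at 38.1 in Dnmt3a+/- and 36.5 in WT cells, so the pattern depends on the scale. The interaction of sex with genotype, a fit added after seeing the data with 2 residual degrees of freedom, gave 0.45 ± 0.19 (SE, log2) and an adjusted p of 0.45 from edgeR.

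In CPM, Slamf6 was higher in Vwf+ than in Vwf- cells in both WT pairs and lower in both Dnmt3a+/- pairs. Its male Dnmt3a+/- pair differed by only -0.0156 CPM, with 4 counts against 8 in libraries of unequal depth. The fitted log2 interaction of Slamf6 was -3.11, with an adjusted p of 1 from edgeR. Slamf7 showed the opposite arrangement, lower in both WT pairs and higher in both Dnmt3a+/- pairs. Its male Dnmt3a+/- pair had 3 counts in each library and differed by 0.0599 CPM. The fitted log2 interaction of Slamf7 was 4.78, with an adjusted p of 1 from edgeR. The patterns of these genes rest on at most 25 and 12 counts in a library, and fitted values at such counts depend on the prior count. As above, no direction is read from either gene. The patterns of Cd84, Slamf6 and Slamf7 came from a search of the members and Cd244 for opposite directions by fraction, genotype and sex. How many of all tested genes show such a pattern was not counted, so none is read as particular to these genes.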

How the results depend on the processing

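Slamf1 passed between fractions in all 15 alternatives over both genotypes, with log2 differences of 1.73 to 1.90, and in all 16 within each genotype. Genes passing between fractions, 866 in the fit reported, were 2132 with the replicate block, 2754 with 4 blocks, 1418 by DESeq2, 1649 without a filter, 563 and 502 by limma with pseudocounts of 1 and 0.1, and 472 to 1387 with a library left out. In WT cells, 314 became 1329, 1872, 731, 1059, 103 and 83 in the same order, 747 with the contrast's libraries alone and 64 to 639 with a library left out. In Dnmt3a+/- cells, 169 became 855, 1257, 494, 633, 89 and 71, 42 with its libraries alone and 75 to 291 with a library left out. The members passing, 1 of 6, became 3 with the block, 4 with 4 blocks and 2 by DESeq2, and 1 to 2 with a library left out. In Dnmt3a+/- cells they became 2 with 4 blocks. Cd48 passed with 4 blocks (-1.84). Cd84 passed with the block and with 4 blocks (both 0.36) and stood at 0.22 to 0.53 with a library left out. Ly9 passed with the block and with 4 blocks (both -0.57) and by DESeq2 (-0.59).

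Genes passing between genotypes, 0 in each fit reported, became 30 with the block, 16 by DESeq2, 61 without a filter and 0 to 3 with a library left out over both fractions. They became 6, 5 and 53, and 2 by limma with 0.1, in Vwf+ cells, and 2, 2 and 27 in Vwf- cells. For the interaction they became 11 with 4 blocks and 24 without a filter. The 1677 genes passing between sexes became 287 and 360 by limma and 713 to 2922 with a library left out, and Cd84 among them was lost (0 members) with RLE, with limma and with some libraries left out (0 to 1). Values near 0 that changed sign were the Slamf1 interaction (0 by DESeq2 and RLE, -0.12 to 0.16 with a library left out), the Slamf1 genotype difference in Vwf- cells (-0.01 to 0.27), the genotype differences over both fractions of Cd48 (-0.07 to 2.00) and Cd84 (-0.24 to 0.05), the Cd48 sex difference (-1.18 to 0.15) and the Cd244 interaction (-0.30 to 7.21), all with a library left out; the cause was not tested. Slamf1 was above Cd84 in 4 libraries by TPM and in 0 by CPM or with M21 transcript lengths. With 2 libraries a group, depth limits Cd48, Slamf6 and Slamf7.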
